A study of Homo sapiens with 24 samples.

Results

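The ID genes and 5 feedback genes of TGF-beta and BMP signalling were followed across 2 human cell lines in 4 culture formats. The genes are ID1, ID2, ID3, ID4, PMEPA1, SMAD6, SMAD7, SKIL and BAMBI, and they were chosen by name with their levels in these libraries already known. Each of the 9 had 1 row among the 26450 genes of the deposited table. RNA was sequenced from 24 libraries in 8 groups of 3. PANC-1, a line established from a carcinoma of the pancreatic duct, was grown at 30 rpm in DRCC, a capillary container rotated about a pair of axes, in the same container at 1 rpm, in AggreWell microwells, which gather cells into aggregates, and as flat culture (2D). HEK293T, a transformed line from embryonic kidney, was grown in the same 4 formats. Both lines are labelled epithelial, no group is given a drug or a genetic change, and culture time, medium and cell number are not given in the sources used here. Each line stands for itself alone, and nothing in the labels says that the 3 libraries of a group came from separate cultures, so errors and p-values measure only the spread between libraries, which may be technical.

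TGF-beta and BMP proteins are secreted ligands that bind paired serine/threonine kinase receptors. Activated receptors phosphorylate SMAD proteins, SMAD2 and SMAD3 for TGF-beta and activin and SMAD1, SMAD5 and SMAD9 for BMPs, which join SMAD4 and act on genes in the nucleus. The ID genes encode helix-loop-helix proteins that cannot bind DNA and hold back E proteins such as TCF3 and TCF12. ID1, ID2 and ID3 are among the best known targets of BMP signalling, and they are tied to growth and delayed differentiation in epithelial cells. The other 5 genes encode inhibitors of the pathway that the pathway itself can induce.

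The 250 bases before the annotated start of the 4 ID genes and of SMAD6 are printed because the ID genes did not move alike and because SMAD6 carried the rarest of the motifs searched. Sequences are from RefSeq, build GRCh38.p14, 5′ to 3′ on the gene's strand, and all 9 genes were matched by symbol. Capitals mark motif matches.
ID1, chr20:31605039-31605288, plus strand: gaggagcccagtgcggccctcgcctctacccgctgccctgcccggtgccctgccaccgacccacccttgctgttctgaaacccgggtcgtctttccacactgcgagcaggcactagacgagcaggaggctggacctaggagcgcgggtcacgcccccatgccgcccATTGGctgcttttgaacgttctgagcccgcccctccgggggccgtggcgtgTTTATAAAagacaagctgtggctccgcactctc
ID2, chr2:8681806-8682055, plus strand: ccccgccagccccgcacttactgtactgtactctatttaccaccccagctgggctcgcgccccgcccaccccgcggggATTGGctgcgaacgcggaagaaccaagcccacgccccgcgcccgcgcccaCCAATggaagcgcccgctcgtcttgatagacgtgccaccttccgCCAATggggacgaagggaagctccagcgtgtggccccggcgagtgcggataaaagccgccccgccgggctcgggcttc
ID3, chr1:23559502-23559751, minus strand: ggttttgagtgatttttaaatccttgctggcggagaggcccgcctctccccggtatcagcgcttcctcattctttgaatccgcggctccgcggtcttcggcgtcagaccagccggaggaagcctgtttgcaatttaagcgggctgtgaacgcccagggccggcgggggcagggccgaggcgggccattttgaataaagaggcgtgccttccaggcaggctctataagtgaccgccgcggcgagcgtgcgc
ID4, chr6:19837120-19837369, plus strand: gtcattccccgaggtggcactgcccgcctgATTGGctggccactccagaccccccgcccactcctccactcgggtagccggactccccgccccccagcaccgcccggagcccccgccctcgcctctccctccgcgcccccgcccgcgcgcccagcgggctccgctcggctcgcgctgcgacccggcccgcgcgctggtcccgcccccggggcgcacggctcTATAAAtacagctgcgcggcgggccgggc
SMAD6, chr15:66701986-66702235, plus strand: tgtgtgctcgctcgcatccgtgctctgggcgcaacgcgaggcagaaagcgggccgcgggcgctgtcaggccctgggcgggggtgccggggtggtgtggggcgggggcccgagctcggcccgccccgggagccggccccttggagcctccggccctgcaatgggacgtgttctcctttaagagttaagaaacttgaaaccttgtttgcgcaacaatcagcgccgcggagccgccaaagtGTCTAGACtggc
Motifs were searched on both strands. The palindromic SMAD binding element GTCTAGAC lay 12 bases before the SMAD6 start and in no window of the other 8 genes, and 0.182% of all 35116 RefSeq windows of that length held it. The CAGA box core CAGACA was found in 1 of the 9 genes, PMEPA1, and in 13.61% of all windows. GGCGCC, a GC-rich SMAD site, was found in 3 of the 9 genes, PMEPA1, SKIL and BAMBI, and in 16.4% of all windows. TGACGTCA, the cAMP response element, was found in 1 of the 9, SKIL, and in 1.65% of all windows. CCAAT and TATAAA were added after the windows had been read. CCAAT was found in ID1, ID2, ID4, PMEPA1 and BAMBI, with 3 matches in ID2, and in 32.0% of all windows. TATAAA was found in ID1, ID4 and SMAD7 and in 10.7% of all windows. In ID1 a pair of TATAAA matches on opposite strands overlaps. The ID3 window held none of the motifs searched. PMEPA1 has 4 annotated starts and SMAD7 has 3, and a gene was counted if any of its windows held the motif.

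Libraries held 32021638 to 39556154 fragments, and in both lines every DRCC library held fewer than any 2D library. The ductal keratins KRT7 and KRT19 were under 0.1 FPKM in every HEK293T library. All 9 PANC-1 markers averaged at least 1 FPKM in PANC-1, and 5 of them did so in HEK293T. All 8 HEK293T markers averaged at least 1 FPKM in HEK293T, and 4 of them did so in PANC-1. Summed HEK293T markers ran from 81.4 to 95.9 FPKM in HEK293T libraries and from 16.6 to 31.7 FPKM in PANC-1 libraries. Summed PANC-1 markers ran from 2733 to 3467 FPKM in PANC-1 libraries and from 183 to 251 FPKM in HEK293T libraries. Of 5 leukocyte markers, PTPRC, CD3E and CSF1R were under 0.1 FPKM in every library, but the summed list ran from 47.7 to 61.9 FPKM in PANC-1, nearly all of it CD68, and from 1.04 to 4.21 FPKM in HEK293T. Of 5 endothelial markers, PECAM1, VWF, CDH5 and TEK were under 0.1 FPKM in every library, and the sum, mostly KDR, reached 4.68 FPKM in PANC-1 and 0.371 FPKM in HEK293T. Of 5 fibroblast markers, COL1A2 and DCN were under 0.1 FPKM in every library, with sums of 4.71 to 7.51 FPKM in PANC-1, mostly COL3A1, and 4.02 to 7.09 FPKM in HEK293T. The part of these genes in the results was not tested. Levels are given as FPKM, fragment counts scaled to transcript length and to the library total, so levels of different genes can be set beside each other. In such bulk samples, fewer cells with a transcript and less of it per cell cannot be told apart. The 2D library 1 of PANC-1 and the 2D library 2 and 1 rpm library 2 of HEK293T stood farther from their group mates than the others did.

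ID1 was the most abundant of the 9 genes in PANC-1. It stood at 263, 266 and 267 FPKM in DRCC at 30 rpm, 92.6, 92.4 and 92.8 FPKM at 1 rpm, 279.7, 297 and 292 FPKM in AggreWell and 202, 199 and 194 FPKM in 2D. The 4 formats did not overlap: 1 rpm was lowest, 2D next, 30 rpm above it and AggreWell highest. Against 2D the log2 changes, on the log2(FPKM + 1) scale used throughout, were 0.42 ± 0.03 at 30 rpm, -1.09 ± 0.03 at 1 rpm and 0.55 ± 0.03 in AggreWell (SE). The mean at 30 rpm was 2.87-fold the level at 1 rpm. In HEK293T, ID1 was far less abundant, with 33.4, 33.7 and 36.3 FPKM at 30 rpm, 21.7, 19.9 and 18.8 FPKM at 1 rpm, 28.8, 24.4 and 27.4 FPKM in AggreWell and 21.999, 19.9 and 21.6 FPKM in 2D. Only the libraries at 1 rpm and in 2D overlapped there, with a log2 change of -0.07 ± 0.06, while 30 rpm differed from 2D by 0.68 ± 0.06 and AggreWell by 0.33 ± 0.06. The change at 1 rpm was not past the threshold, but median-ratio scaling gave -0.28, past it, while leaving out mitochondrially encoded genes gave 0.09.

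ID3 followed ID1 in PANC-1 at a somewhat lower level. Its values were 219, 209.8 and 220.0 FPKM at 30 rpm, 53.04, 54.9 and 54.8 FPKM at 1 rpm, 187, 188 and 198 FPKM in AggreWell and 130.2, 132 and 125 FPKM in 2D. No 2 formats overlapped, and 30 rpm was highest as deposited, 0.18 ± 0.03 above AggreWell, a difference of 0.04 and no longer past the threshold with mitochondrially encoded genes left out. The log2 changes against 2D were 0.74 ± 0.03 at 30 rpm, -1.24 ± 0.03 at 1 rpm and 0.56 ± 0.03 in AggreWell, and 30 rpm stood 1.98 ± 0.03 above 1 rpm, or 3.99-fold the level. In HEK293T, ID3 had 160.2, 157 and 167 FPKM at 30 rpm, 118, 111 and 115 FPKM at 1 rpm, 129.6, 129 and 139 FPKM in AggreWell and 126, 127 and 132 FPKM in 2D. The 30 rpm libraries lay above the rest and the 1 rpm libraries below it, and AggreWell and 2D overlapped. The change at 30 rpm was 0.32 ± 0.04. The direction of the smaller differences depended on scaling. AggreWell against 2D was 0.04 ± 0.04 as deposited, not past the threshold. It was -0.12 with median-ratio scaling, 0.28 with quantile normalization and 0.18 with mitochondrially encoded genes left out, all past it. The value for 1 rpm against 2D was -0.16 ± 0.04 as deposited, 0.12 with quantile normalization and 0.00451 with mitochondrially encoded genes left out.

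On the log2 scale, ID2 moved over the widest range of the 7 genes tested in PANC-1. It had 8.14, 6.86 and 6.12 FPKM at 30 rpm, 4.03, 3.67 and 3.53 FPKM at 1 rpm, 56.4, 56.2 and 54.9 FPKM in AggreWell and 17.2, 19.8 and 19.1 FPKM in 2D. AggreWell was highest and 2D second, and both DRCC speeds were lower than either, with no overlap between formats. ID2 therefore parted from ID1 and ID3 at 30 rpm, where it was lower than in 2D and they were higher. The log2 changes against 2D were -1.30 ± 0.08 at 30 rpm, -2.05 ± 0.08 at 1 rpm and 1.53 ± 0.08 in AggreWell. Against AggreWell they were -2.83 ± 0.08 at 30 rpm and -3.58 ± 0.08 at 1 rpm, a 14.9-fold difference between the 1 rpm and AggreWell means. In HEK293T, ID2 had 142, 137 and 138 FPKM at 30 rpm, 123, 134 and 121 FPKM at 1 rpm, 126, 129.7 and 128 FPKM in AggreWell and 97.04, 104 and 99.9 FPKM in 2D. All 3 other formats lay above 2D, by 0.47 ± 0.04, 0.33 ± 0.04 and 0.35 ± 0.04 in the same order. The 1 rpm and AggreWell libraries overlapped.

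ID4 separated the lines. In HEK293T it had 50.9, 50.1 and 49.8 FPKM at 30 rpm, 34.9, 38.7 and 35.04 FPKM at 1 rpm, 18.4, 19.8 and 17.6 FPKM in AggreWell and 18.9, 22.9 and 19.4 FPKM in 2D. AggreWell and 2D overlapped, 1 rpm lay above both and 30 rpm above 1 rpm. The changes against 2D were 1.27 ± 0.06 at 30 rpm, 0.80 ± 0.06 at 1 rpm and -0.12 ± 0.06 in AggreWell, and 30 rpm stood 0.46 ± 0.06 above 1 rpm. The AggreWell change was not past the threshold but passed it without 2D library 1 (-0.17) or AggreWell library 2 (-0.17), with median-ratio scaling (-0.28), with quantile normalization (-0.17) and, at the same value, with the replicate number as a block. With mitochondrially encoded genes left out it was 0.0031. In PANC-1, between 2 and 28 fragments per library fell on ID4, the 17 to 28 of AggreWell being the most, and its highest level was 0.19 FPKM. Such values were under the filter of 1 FPKM in at least 3 libraries, and no fold was computed from them.

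**Figure D1:**
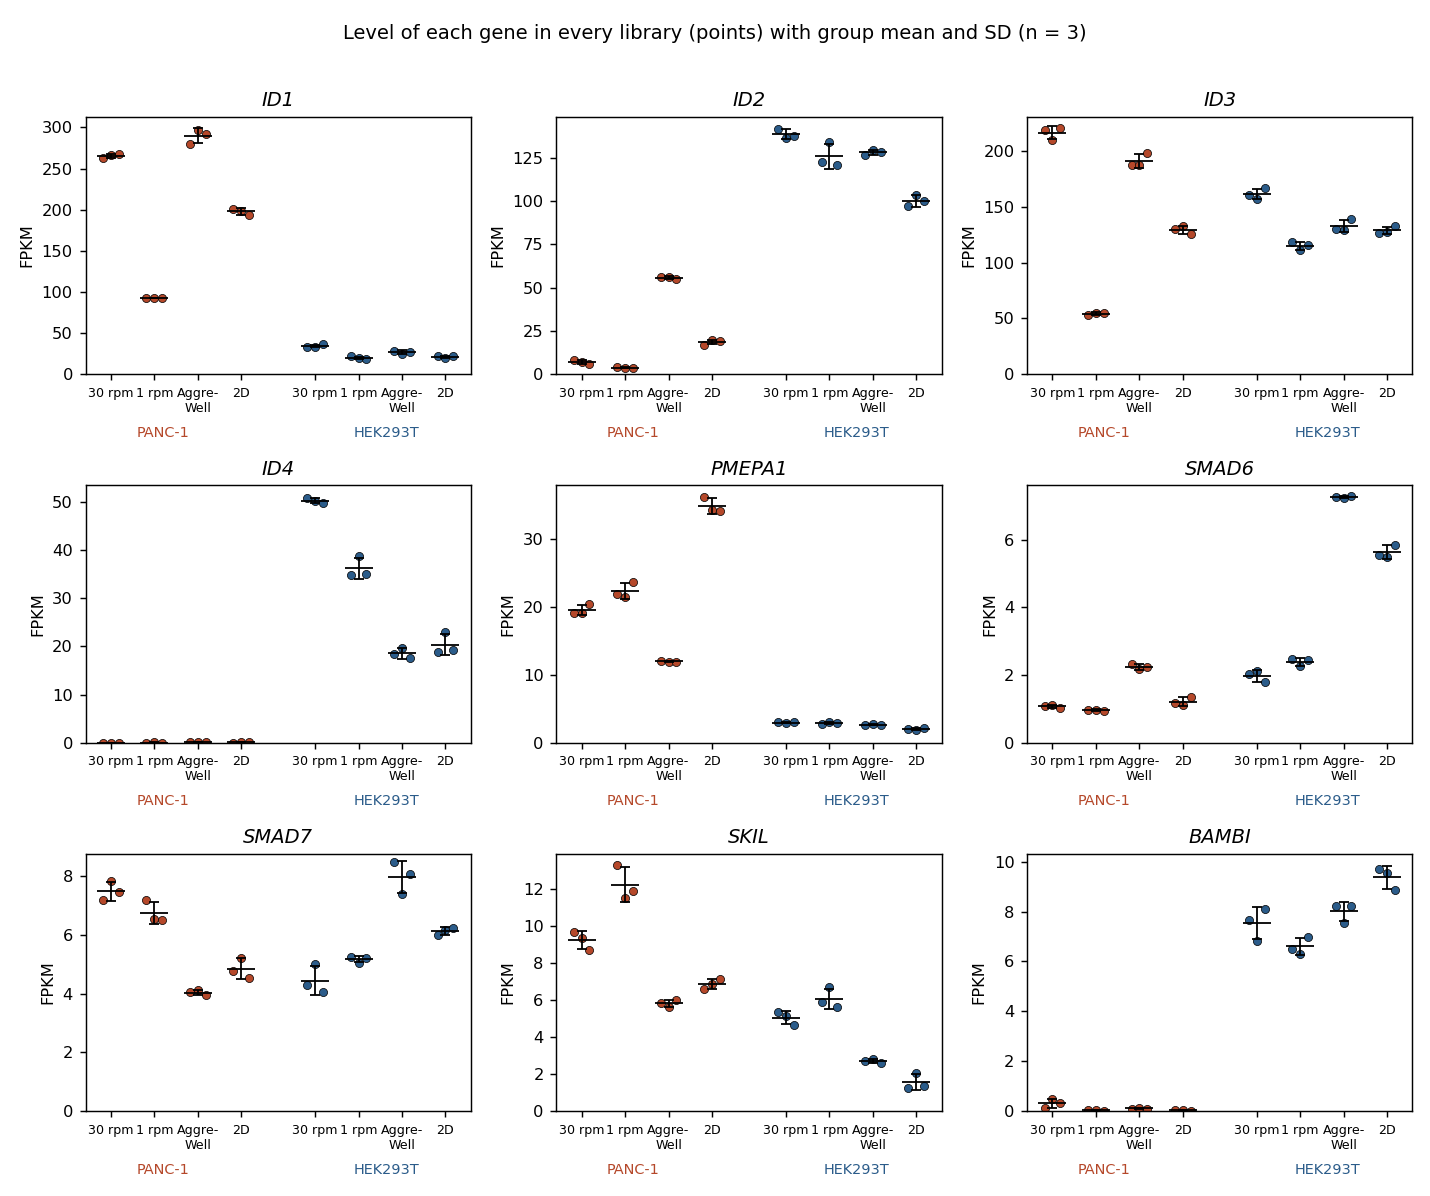
FPKM of each of the 9 genes (vertical axes from 0, own scale for each gene) in every library of PANC-1 (red) and HEK293T (blue), with DRCC 30 rpm, DRCC 1 rpm, AggreWell and 2D from left to right in each line. Points are libraries, and dashes with bars are the mean and SD of 3; ID1 and ID3 in PANC-1 are lowest at 1 rpm, ID2 is highest in AggreWell, and ID4 and BAMBI stand near 0 in PANC-1.

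Summed over the 4 genes, the ID family reached 489 ± 5.43 FPKM at 30 rpm, 151 ± 0.78 FPKM at 1 rpm, 537 ± 11.7 FPKM in AggreWell and 346 ± 6.82 FPKM in 2D in PANC-1 (SD, n = 3 each). The sum in HEK293T was 385 ± 6.51 FPKM at 30 rpm, 297 ± 7.14 FPKM at 1 rpm, 306 ± 5.38 FPKM in AggreWell and 270.4 ± 5.28 FPKM in 2D (SD, n = 3 each). The 4 PANC-1 formats did not overlap, and 1 rpm in PANC-1 was the one group whose mean lay below that of 2D in its line. ID1 made up 54.0% to 61.5% of the mean sum in PANC-1 formats and ID3 35.6% to 44.2%. The ID2 share in PANC-1 was 1.44% at 30 rpm, 2.48% at 1 rpm, 10.4% in AggreWell and 5.40% in 2D. In HEK293T, ID3 held 38.7% to 47.6% and ID2 36.1% to 42.3%, while ID1 held 6.76% to 8.96%. ID4 there held 13.1% at 30 rpm, 12.2% at 1 rpm, 6.08% in AggreWell and 7.54% in 2D.

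**Figure D2:**
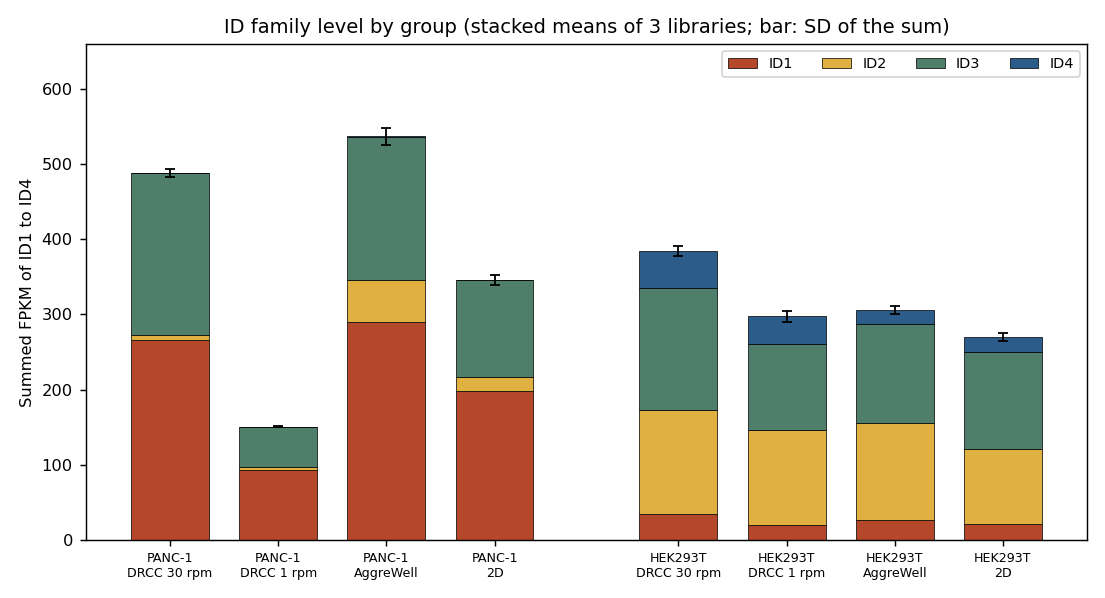
Stacked mean FPKM of ID1, ID2, ID3 and ID4 (vertical axis from 0, summed FPKM) by line and format, with the SD of the sum over 3 libraries as a bar. The PANC-1 sum is 151 FPKM at 1 rpm against 346 in 2D, and ID4 is visible in HEK293T only.

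PMEPA1, which encodes a membrane protein that keeps SMAD2 and SMAD3 from the TGF-beta receptor, was lower than 2D in all 3 other formats of PANC-1. It had 19.1, 19.1 and 20.5 FPKM at 30 rpm, 21.9, 21.5 and 23.6 FPKM at 1 rpm, 12.1, 11.9 and 11.97 FPKM in AggreWell and 36.2, 34.3 and 34.1 FPKM in 2D. The formats did not overlap, and AggreWell was lowest. The log2 changes against 2D were -0.80 ± 0.04 at 30 rpm, -0.62 ± 0.04 at 1 rpm and -1.47 ± 0.04 in AggreWell. In HEK293T the gene was weak, at 3.00, 2.89 and 3.05 FPKM at 30 rpm, 2.83, 3.07 and 2.95 FPKM at 1 rpm, 2.61, 2.77 and 2.62 FPKM in AggreWell and 2.03, 1.89 and 2.12 FPKM in 2D. The 3 other formats lay above 2D there, and the 2 speeds overlapped. These HEK293T differences were small and depended on scaling: 1 rpm against 2D was 0.39 ± 0.05 as deposited and -0.06 with quantile normalization, AggreWell against 2D was 0.28 ± 0.05 and -0.05, 1 rpm against AggreWell was 0.11 ± 0.05 and -0.01, and 30 rpm against 2D was 0.40 ± 0.05 and 0.04, no longer past the threshold. The small difference between 1 rpm and AggreWell also fell short of the threshold without any 1 of 8 HEK293T libraries, at 0.08 to 0.11. These were 2D library 1, AggreWell libraries 1 and 3, 1 rpm libraries 2 and 3 and all 3 of 30 rpm.

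SMAD6, the inhibitory SMAD that acts mostly on BMP receptors, was highest in AggreWell in both lines as deposited. In PANC-1 it had 1.10, 1.12 and 1.03 FPKM at 30 rpm, 0.97, 0.98 and 0.94 FPKM at 1 rpm, 2.33, 2.17 and 2.23 FPKM in AggreWell and 1.17, 1.12 and 1.36 FPKM in 2D. AggreWell stood alone at 1.84-fold the level in 2D, and the other formats lay close together, with 30 rpm and 2D overlapping. In HEK293T it had 2.04, 2.11 and 1.79 FPKM at 30 rpm, 2.47, 2.25 and 2.45 FPKM at 1 rpm, 7.26, 7.22 and 7.28 FPKM in AggreWell and 5.56, 5.48 and 5.86 FPKM in 2D. No formats overlapped there, and both DRCC speeds were below both other formats. The HEK293T changes against 2D were -1.16 ± 0.05 at 30 rpm, -0.97 ± 0.05 at 1 rpm and 0.32 ± 0.05 in AggreWell, where it was 0.05 and not past the threshold with quantile normalization. The PANC-1 changes were -0.09 ± 0.05, -0.18 ± 0.05 and 0.55 ± 0.05 in the same order, the first of them not past the threshold as deposited but past it with median-ratio scaling (-0.20) and quantile normalization (-0.47).

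SMAD7, the inhibitory SMAD that acts on both TGF-beta and BMP receptors, took opposite orders in the lines as deposited. In PANC-1 it had 7.17, 7.81 and 7.46 FPKM at 30 rpm, 7.18, 6.54 and 6.51 FPKM at 1 rpm, 4.04, 4.11 and 3.95 FPKM in AggreWell and 4.77, 5.22 and 4.53 FPKM in 2D. The DRCC libraries lay above the others, with the 2 speeds overlapping at the edge. In HEK293T it had 4.28, 4.99 and 4.05 FPKM at 30 rpm, 5.24, 5.05 and 5.21 FPKM at 1 rpm, 8.46, 7.37 and 8.06 FPKM in AggreWell and 5.99, 6.17 and 6.23 FPKM in 2D, so that DRCC lay below 2D and AggreWell above it. The changes against 2D at 30 rpm, at 1 rpm and in AggreWell were 0.54 ± 0.05, 0.41 ± 0.05 and -0.21 ± 0.05 in PANC-1, and -0.39 ± 0.06, -0.21 ± 0.06 and 0.33 ± 0.06 in HEK293T. In HEK293T the AggreWell change was 0.08 with quantile normalization and the 1 rpm change -0.07 with mitochondrially encoded genes left out, neither past the threshold. SMAD7 at 30 rpm against 1 rpm passed the threshold in both lines, at 0.13 ± 0.05 in PANC-1 and -0.18 ± 0.06 in HEK293T. These calls were lost without PANC-1 library 2 or 3 of either speed, and without HEK293T library 1 or 3 of either speed. Both were also lost with no filter and with median-ratio scaling. The PANC-1 call was lost with mitochondrially encoded genes left out (0.04), and the HEK293T call with quantile normalization (-0.11).

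SKIL encodes SnoN, a corepressor that binds SMAD complexes on DNA and is broken down when TGF-beta signals. It was highest at 1 rpm in both lines. In HEK293T the difference between the speeds, -0.22 ± 0.10 for 30 rpm against 1 rpm, was not past the threshold. It passed with only those 2 formats fitted (-0.22) and with voom (-0.26). In PANC-1 it had 9.67, 9.36 and 8.71 FPKM at 30 rpm, 13.3, 11.5 and 11.9 FPKM at 1 rpm, 5.87, 5.64 and 5.99 FPKM in AggreWell and 6.60, 6.86 and 7.15 FPKM in 2D, without overlap between formats. In HEK293T it had 5.35, 5.14 and 4.67 FPKM at 30 rpm, 5.88, 6.69 and 5.63 FPKM at 1 rpm, 2.70, 2.81 and 2.60 FPKM in AggreWell and 1.24, 2.05 and 1.38 FPKM in 2D. Library 2 of the HEK293T 2D group stood above its group mates and still below the AggreWell libraries. The changes against 2D at 30 rpm, at 1 rpm and in AggreWell were 0.38 ± 0.05, 0.75 ± 0.05 and -0.20 ± 0.05 in PANC-1 and 1.25 ± 0.10, 1.48 ± 0.10 and 0.55 ± 0.10 in HEK293T. The AggreWell change no longer passed the threshold in PANC-1 with mitochondrially encoded genes left out (-0.12) or in HEK293T with quantile normalization (0.22).

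BAMBI encodes a receptor-like protein that lacks the kinase part and blocks receptor pairing. In HEK293T it was highest in 2D, with 7.67, 6.84 and 8.12 FPKM at 30 rpm, 6.52, 6.31 and 6.99 FPKM at 1 rpm, 8.23, 7.56 and 8.23 FPKM in AggreWell and 9.69, 9.56 and 8.85 FPKM in 2D. All 3 other formats lay below 2D, and 30 rpm overlapped with both AggreWell and 1 rpm. The changes against 2D were -0.28 ± 0.06 at 30 rpm, -0.45 ± 0.06 at 1 rpm and -0.20 ± 0.06 in AggreWell. The 30 rpm and AggreWell changes no longer passed with mitochondrially encoded genes left out, at -0.12 and -0.08. In PANC-1, BAMBI was near the limit of counting, with 8, 31 and 21 fragments at 30 rpm, 4, 2 and 1 at 1 rpm, 5, 10 and 7 in AggreWell and 4, 3 and 2 in 2D. The 3 libraries at 30 rpm thus included the highest PANC-1 counts, all of them under the filter.

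**Figure D3:**
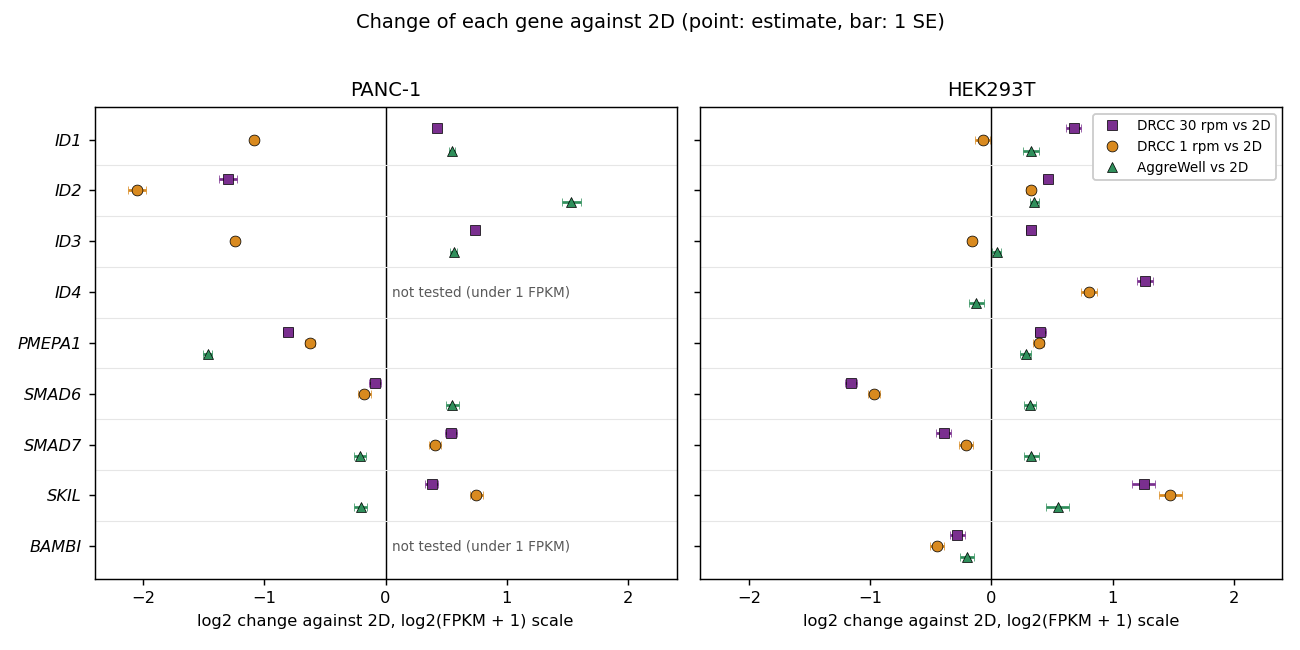
Log2 change of each of the 9 genes against 2D (horizontal axis, log2(FPKM + 1) scale) in PANC-1 (left) and HEK293T (right), for DRCC 30 rpm (squares), DRCC 1 rpm (circles) and AggreWell (triangles), with bars of 1 SE. In PANC-1, ID2 lies between -2.05 and 1.53 and ID1 and ID3 change side between 1 rpm and 30 rpm; in HEK293T, ID4 and SKIL lie to the right and SMAD6 to the left for both DRCC speeds.

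Most genes of the table passed the same limma test with Benjamini-Hochberg adjustment at 0.05, so calls for the 9 genes say little, and since the genes were chosen on these libraries nothing is read from them. In PANC-1 against 2D, 6 of 7 tested genes were called at 30 rpm, where 85.8% of all genes were, 7 of 7 at 1 rpm beside 86.2%, and 7 of 7 in AggreWell beside 70.0%. SMAD6 at 30 rpm was the exception. At 2-fold or more on the log2(FPKM + 1) scale, 1 gene was called at 30 rpm (ID2) beside 14.2% of all genes. There were 3 at 1 rpm (ID1, ID2 and ID3) beside 14.2%, and 2 in AggreWell (ID2 and PMEPA1) beside 1.44%. In HEK293T against 2D, 9 of 9 were called at 30 rpm beside 85.0%, 8 of 9 at 1 rpm beside 84.8% and 7 of 9 in AggreWell beside 75.4%. At 2-fold or more on that scale these were 3 genes at 30 rpm (ID4, SMAD6 and SKIL) beside 15.5%, 1 at 1 rpm (SKIL) beside 14.9%, and 0 in AggreWell beside 5.53%. SMAD6 at 1 rpm missed this cut at -0.97, although its mean FPKM in 2D was 2.35-fold that at 1 rpm. The median log2 change over all tested genes against 2D was 0.17 at 30 rpm, 0.15 at 1 rpm and 0.10 in AggreWell in PANC-1, and 0.13, 0.18 and 0.12 in HEK293T. Under median-ratio scaling the 6 medians ran from -0.01 to 0.01, so that scaling shifts all changes down by about the medians given, and changes of that size cannot be told apart from it.

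The comparisons between the 3 formats other than 2D reuse the same libraries. In PANC-1, 7 of 7 genes were called for 30 rpm against AggreWell beside 83.3% of all genes, 7 of 7 for 1 rpm against AggreWell beside 82.0%, and 6 of 7 for 30 rpm against 1 rpm beside 68.1%. In HEK293T these were 8 of 9 beside 78.5%, 8 of 9 beside 75.6% and 7 of 9 beside 52.6%. Among these HEK293T calls, ID2 at 30 rpm against AggreWell was lost without 30 rpm library 1 (0.10), and PMEPA1 without library 1 or 3 of either format (0.11). BAMBI at 30 rpm against 1 rpm was lost without 30 rpm library 1 or 3 or 1 rpm library 1 or 2, at 0.12 to 0.16. Calls were gained by ID2 at 1 rpm against AggreWell without 1 rpm library 2 (-0.07) and by SKIL at 30 rpm against 1 rpm without 2D library 1 or 2 (-0.22). Between the 2 speeds in PANC-1, ID1, ID2 and ID3 were all higher at 30 rpm, by 1.51 ± 0.03, 0.75 ± 0.08 and 1.98 ± 0.03. In HEK293T the same 3 genes were higher at 30 rpm by 0.75 ± 0.06, 0.14 ± 0.04 and 0.49 ± 0.04, and ID4 by 0.46 ± 0.06. PMEPA1 and SKIL were lower at 30 rpm than at 1 rpm in PANC-1, by -0.18 ± 0.04 and -0.37 ± 0.05 on the log2 scale.

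The difference between the lines in each change against 2D was fitted as an interaction over all 24 libraries. The 7 genes tested in both lines passed for 30 rpm beside 79.5% of the 13392 genes tested, for 1 rpm beside 75.8%, and for AggreWell beside 57.0%. At both speeds the widest gap was that of ID2, whose difference, PANC-1 minus HEK293T, was -1.76 at 30 rpm and -2.38 at 1 rpm. In AggreWell the widest was that of PMEPA1, at -1.75, beside 1.18 for ID2. The PANC-1 minus HEK293T difference was below 0 for SKIL and PMEPA1 in all 3 formats and above 0 for SMAD6. ID4 and BAMBI are not counted here: they passed the filter of this fit through HEK293T alone, and their PANC-1 levels were under 1 FPKM.

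Other genes of the pathway were taken from 10 lists of 136 genes found in the table, which were also drawn up with results of these data known. Of these, 77 were tested in PANC-1. At 30 rpm 47 rose and 21 fell, which is 61.0% and 27.3% beside 53.6% and 32.2% of all genes tested. At 1 rpm 45 rose and 20 fell (58.4% and 26.0%, beside 52.3% and 33.9%), and in AggreWell 31 rose and 27 fell (40.3% and 35.1%, beside 45.9% and 24.1%). In HEK293T 84 were tested, of which 48 rose and 20 fell at 30 rpm (57.1% and 23.8%, beside 49.6% and 35.5%). At 1 rpm 60 rose and 16 fell (71.4% and 19.0%, beside 53.1% and 31.7%), and in AggreWell 49 rose and 15 fell (58.3% and 17.9%, beside 48.6% and 26.8%). Of all genes tested, more rose than fell in each of the 6 comparisons. The median log2 changes of the lists together were 0.35, 0.23 and 0.03 in PANC-1 and 0.29, 0.43 and 0.21 in HEK293T, for 30 rpm, 1 rpm and AggreWell, beside the medians of all genes given above. Genes named below passed limma's test with Benjamini-Hochberg adjustment over all genes unless said otherwise. As the lists were drawn up with results known and mostly the largest changes are named, their p-values are descriptive. Where a fall or rise is named against 2D, all 3 libraries lay beyond all 3 of 2D.

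Among ligands in PANC-1, BMP6 had 50.4 ± 0.94 FPKM at 30 rpm, 23.02 ± 1.57 FPKM at 1 rpm and 9.24 ± 0.15 FPKM in AggreWell, against 16.3 ± 0.33 FPKM in 2D (SD, n = 3 each). It rose by 1.57 ± 0.04 and 0.47 ± 0.04 on the log2 scale at the 2 speeds and fell in AggreWell, with a change of -0.75 ± 0.04 (limma adjusted p 2.3e-13, 5.7e-08 and 2.1e-09). BMP7, another BMP ligand, rose by 1.40 ± 0.05 at 30 rpm, 0.72 ± 0.05 at 1 rpm and 0.44 ± 0.05 in AggreWell. TGFB2, a TGF-beta ligand, fell to 4.96 ± 0.10 FPKM at 30 rpm, 5.14 ± 0.23 FPKM at 1 rpm and 6.61 ± 0.38 FPKM in AggreWell, against 12.9 ± 0.34 FPKM in 2D. TGFB1, the ligand with the higher level, rose by 0.74 ± 0.05 at 30 rpm and 0.26 ± 0.05 at 1 rpm, and its change in AggreWell was -0.09 ± 0.05, not past the threshold. In HEK293T the ligand with the largest change was INHBE, an activin and inhibin subunit, with 10.04 ± 0.82 FPKM at 30 rpm, 24.7 ± 0.82 FPKM at 1 rpm and 2.70 ± 0.24 FPKM in AggreWell, against 0.46 ± 0.050 FPKM in 2D. Its log2 changes were 2.91 ± 0.06, 4.14 ± 0.06 and 1.33 ± 0.06 (limma adjusted p 1.3e-13, 1.1e-14 and 5.2e-10). GDF11, an activin-like ligand, fell in all 3 formats of HEK293T, with changes of -0.66, -0.50 and -0.46.

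Of receptors, TGFBR2, the receptor that binds TGF-beta first, fell in PANC-1 to 12.7 ± 0.42 FPKM at 30 rpm and 11.98 ± 0.26 FPKM at 1 rpm, against 24.3 ± 0.40 FPKM in 2D, with log2 changes of -0.88 ± 0.03 and -0.96 ± 0.03. Its AggreWell change was -0.19 ± 0.03. ACVR1, a type I receptor for BMPs, rose by 1.07 ± 0.04 at 30 rpm and 0.78 ± 0.04 at 1 rpm in PANC-1, and by 0.59 ± 0.05 and 0.79 ± 0.05 in HEK293T. RGMB, a BMP coreceptor, fell in all 3 formats of PANC-1, with changes of -0.26, -0.33 and -0.54 at 30 rpm, at 1 rpm and in AggreWell. In HEK293T it rose by 0.77 and 0.82 at the 2 speeds and fell in AggreWell, with a change of -0.37. Of 11 receptors tested in PANC-1, 7 rose and 3 fell at 30 rpm, 7 rose and 2 fell at 1 rpm, and 4 rose and 2 fell in AggreWell. Of 11 in HEK293T, 8 rose and 0 fell at 30 rpm, 10 rose and 1 fell at 1 rpm, and 7 rose and 3 fell in AggreWell. Of all genes tested, 53.6%, 52.3% and 45.9% rose in PANC-1 and 49.6%, 53.1% and 48.6% in HEK293T, in the same order. Those that fell were 32.2%, 33.9% and 24.1% in PANC-1 and 35.5%, 31.7% and 26.8% in HEK293T.

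The SMADs that carry the signal all passed the filter in HEK293T, and all but SMAD9 did so in PANC-1. SMAD3 was the most abundant in PANC-1, with 53.5 ± 0.85 FPKM at 30 rpm, 90.4 ± 1.97 FPKM at 1 rpm and 52.4 ± 0.99 FPKM in AggreWell, against 58.5 ± 1.41 FPKM in 2D. Its 1 rpm libraries stood above the rest, with a log2 change of 0.62 ± 0.03 (limma adjusted p 4.4e-11), and the changes at 30 rpm and in AggreWell were -0.13 and -0.15. In HEK293T, SMAD3 averaged 3.71 ± 0.21 FPKM at 30 rpm, 4.81 ± 0.55 FPKM at 1 rpm and 5.47 ± 0.17 FPKM in AggreWell, against 4.86 ± 0.091 FPKM in 2D. SMAD4, the partner of all other signalling SMADs and a gene often lost in pancreatic carcinoma, was present in PANC-1 at 6.59 ± 0.41 FPKM at 30 rpm, 7.55 ± 0.14 FPKM at 1 rpm, 4.94 ± 0.20 FPKM in AggreWell and 4.96 ± 0.14 FPKM in 2D. In HEK293T it averaged 7.28 FPKM at 30 rpm, 7.45 FPKM at 1 rpm, 6.93 FPKM in AggreWell and 5.88 FPKM in 2D.

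SMAD5 was the most abundant of the BMP SMADs in both lines. In HEK293T it had 16.9 ± 0.44 FPKM at 30 rpm, 17.05 ± 1.53 FPKM at 1 rpm and 15.5 ± 1.13 FPKM in AggreWell, against 7.88 ± 1.20 FPKM in 2D. In PANC-1 it had 13.6 ± 0.20 FPKM at 30 rpm, 19.8 ± 0.38 FPKM at 1 rpm and 14.4 ± 0.49 FPKM in AggreWell, against 11.7 ± 0.91 FPKM in 2D. SMAD5 rose in all 3 formats of both lines, by 1.02, 1.03 and 0.90 in HEK293T and by 0.21, 0.71 and 0.28 in PANC-1, for 30 rpm, 1 rpm and AggreWell. SMAD1 averaged 4.88, 3.47 and 3.79 FPKM in those formats of PANC-1 against 2.98 FPKM in 2D, and 3.66, 4.503 and 4.86 FPKM in HEK293T against 5.15 FPKM in 2D. SMAD2 averaged 2.28, 3.57 and 2.60 FPKM in PANC-1 against 2.36 FPKM in 2D, and 1.27, 1.22 and 1.03 FPKM in HEK293T against 0.69 FPKM in 2D. SMAD9 was under the filter in PANC-1, and in HEK293T it averaged 3.59, 3.81 and 3.08 FPKM against 2.39 FPKM in 2D.

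Among corepressors and turnover factors, TGIF1, a corepressor like SKIL, rose in PANC-1 to 40.5 ± 1.41 FPKM at 30 rpm and 43.3 ± 0.82 FPKM at 1 rpm, against 17.5 ± 0.18 FPKM in 2D, with log2 changes of 1.17 ± 0.03 and 1.26 ± 0.03. In HEK293T its change was 0.30 ± 0.08 at 30 rpm and 0.08 ± 0.08 at 1 rpm, and the difference between the lines was 0.87 ± 0.08 at 30 rpm and 1.18 ± 0.08 at 1 rpm (limma adjusted p 3.1e-09 and 2.8e-11). SMURF1, a ubiquitin ligase that removes SMADs and receptors, rose by 0.52 and 0.67 at 30 rpm and 1 rpm in PANC-1. USP15, a deubiquitinase that acts on receptors and SMADs, rose in HEK293T to 6.07 ± 0.24 FPKM at 30 rpm, 4.73 ± 0.21 FPKM at 1 rpm and 3.38 ± 0.047 FPKM in AggreWell, against 1.19 ± 0.080 FPKM in 2D. Of the 12 genes of that list tested in PANC-1, 7 rose and 2 fell at 30 rpm, 8 rose and 0 fell at 1 rpm, and 4 rose and 4 fell in AggreWell. The same 12 in HEK293T gave 8 higher and 2 lower at 30 rpm, 7 and 3 at 1 rpm, and 8 and 0 in AggreWell. Those counts stand beside the shares of all genes given with the receptors.

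Among extracellular regulators, NOG, the BMP antagonist noggin and itself a BMP target, resembled ID1 and ID3 in PANC-1 at 1 rpm. It had 16.9 ± 0.60 FPKM at 30 rpm, 3.999 ± 0.046 FPKM at 1 rpm and 13.7 ± 0.72 FPKM in AggreWell, against 13.4 ± 1.24 FPKM in 2D. The change at 1 rpm was -1.52 ± 0.05 (limma adjusted p 6.8e-12), that at 30 rpm 0.32 ± 0.05 (8.1e-05), and that in AggreWell 0.03 ± 0.05 (0.58). In HEK293T, NOG had 1.02 ± 0.024 FPKM at 30 rpm, 2.66 ± 0.42 FPKM at 1 rpm and 10.1 ± 0.87 FPKM in AggreWell, against 3.01 ± 0.15 FPKM in 2D. AggreWell was the high format there and 30 rpm the low one. LTBP3 and LTBP4, which hold latent TGF-beta in the matrix, rose in PANC-1 by 1.32 and 1.66 at 30 rpm and by 0.76 and 1.24 at 1 rpm. LTBP4 rose in HEK293T too, by 0.74 at 30 rpm, 1.13 at 1 rpm and 0.90 in AggreWell.

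TGF-beta induced genes other than the 9 went both ways in PANC-1. Of 16 tested, 8 rose and 8 fell at 30 rpm, 6 rose and 9 fell at 1 rpm, and 3 rose and 10 fell in AggreWell, with a list median of -0.32 in AggreWell. Of all genes tested there, 53.6%, 52.3% and 45.9% rose and 32.2%, 33.9% and 24.1% fell, in the same order. CCN2, a matrix protein also driven by YAP, fell to 19.2 ± 0.53 FPKM at 30 rpm, 7.96 ± 0.32 FPKM at 1 rpm and 20.6 ± 0.27 FPKM in AggreWell, against 74.7 ± 3.04 FPKM in 2D (limma adjusted p 1.5e-14, 3.3e-16 and 3.8e-13). ADAM19, a membrane protease, fell by a log2 change of -0.83 in AggreWell. The transcription factor genes JUNB, SNAI1 and BHLHE40 rose against 2D at both DRCC speeds in PANC-1, by 2.51, 2.33 and 2.38 at 30 rpm and by 2.17, 1.39 and 1.90 at 1 rpm. These 3 are also immediate or stress responsive genes.

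In HEK293T 14 genes of that list were tested, of which 11 rose and 2 fell at 30 rpm, 13 rose and 1 fell at 1 rpm, and 8 rose and 1 fell in AggreWell. Of all genes tested there, 49.6%, 53.1% and 48.6% rose and 35.5%, 31.7% and 26.8% fell, in the same order. SNAI2, a repressor of epithelial genes, had 96.3 ± 1.83 FPKM at 30 rpm against 36.2 ± 0.66 FPKM in 2D, a change of 1.39 ± 0.03. KLF10, an early TGF-beta target, rose by 1.41 at 30 rpm and 1.51 at 1 rpm. BHLHE40 rose by 1.13, 1.87 and 1.99 at 30 rpm, at 1 rpm and in AggreWell.

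Of the BMP induced genes other than the IDs and SMAD6, 7 of 9 rose and 1 fell at 30 rpm in PANC-1, 4 rose and 2 fell at 1 rpm, and 6 rose and 1 fell in AggreWell. In HEK293T, 2 of 8 rose and 5 fell at 30 rpm, 2 rose and 4 fell at 1 rpm, and 4 rose and 3 fell in AggreWell. The shares of all genes that rose and fell are those given with the receptors. HEY1, a repressor shared with Notch signalling, was the most abundant there, at 223 ± 0.83 FPKM at 30 rpm, 186 ± 10.1 FPKM at 1 rpm and 148 ± 2.57 FPKM in AggreWell, against 126 ± 10.04 FPKM in 2D. The homeobox genes MSX1 and DLX2 were lower, with changes of -0.55 and -0.76 at 30 rpm and -0.48 and -0.57 at 1 rpm. In PANC-1, MSX1 rose by 0.94 ± 0.07 at 30 rpm and changed by 0.08 ± 0.07 at 1 rpm, which was not past the threshold. ATOH8, a helix-loop-helix gene and BMP target chosen after its values were seen, had 0.19 ± 0.021 FPKM at 30 rpm, 0.19 ± 0.040 FPKM at 1 rpm, 3.25 ± 0.13 FPKM in AggreWell and 1.05 ± 0.089 FPKM in 2D in PANC-1, with AggreWell above 2D and both speeds below it, as for ID2.

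Helix-loop-helix partners of the ID proteins were also followed. TCF3, the most abundant E protein gene in PANC-1, stood at 21.7 ± 0.60 FPKM at 30 rpm, 17.02 ± 0.77 FPKM at 1 rpm and 18.3 ± 0.27 FPKM in AggreWell, against 19.6 ± 1.04 FPKM in 2D. TCF12, another E protein gene, rose by 0.84 ± 0.04, 1.05 ± 0.04 and 0.26 ± 0.04 in PANC-1 and by 0.85 ± 0.05, 1.17 ± 0.05 and 0.42 ± 0.05 in HEK293T, for 30 rpm, 1 rpm and AggreWell. HES1, a Notch effector, rose in PANC-1 to 94.8 ± 5.11 FPKM at 30 rpm and 36.9 ± 0.78 FPKM at 1 rpm, against 20.7 ± 1.31 FPKM in 2D. In HEK293T it rose by 1.19, 1.67 and 0.36.

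Of 4 regulators reported to act on ID genes, MYC had 179.8 ± 2.78 FPKM at 30 rpm, 90.5 ± 3.64 FPKM at 1 rpm and 17.6 ± 0.71 FPKM in AggreWell, against 30.5 ± 3.73 FPKM in 2D in PANC-1. EGR1, an immediate early factor, rose by 3.25 ± 0.05 at 30 rpm and 3.39 ± 0.05 at 1 rpm in PANC-1. ATF3, a stress-induced factor that can repress ID1, rose by 2.61 ± 0.05 at 30 rpm and 1.40 ± 0.05 at 1 rpm in PANC-1 and fell in AggreWell, with a change of -0.36 ± 0.05. In HEK293T, ATF3 rose by 3.72 ± 0.02, 3.23 ± 0.02 and 1.80 ± 0.02. At 30 rpm in both lines ATF3 and ID1 were both above 2D, as they were in AggreWell in HEK293T. In PANC-1 ATF3 was above 2D and ID1 below it at 1 rpm, and in AggreWell the reverse held. In HEK293T at 1 rpm ATF3 was above 2D while ID1 overlapped with it. The part of ATF3 and ID1 in each other's level was not tested.

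**Figure D4:**
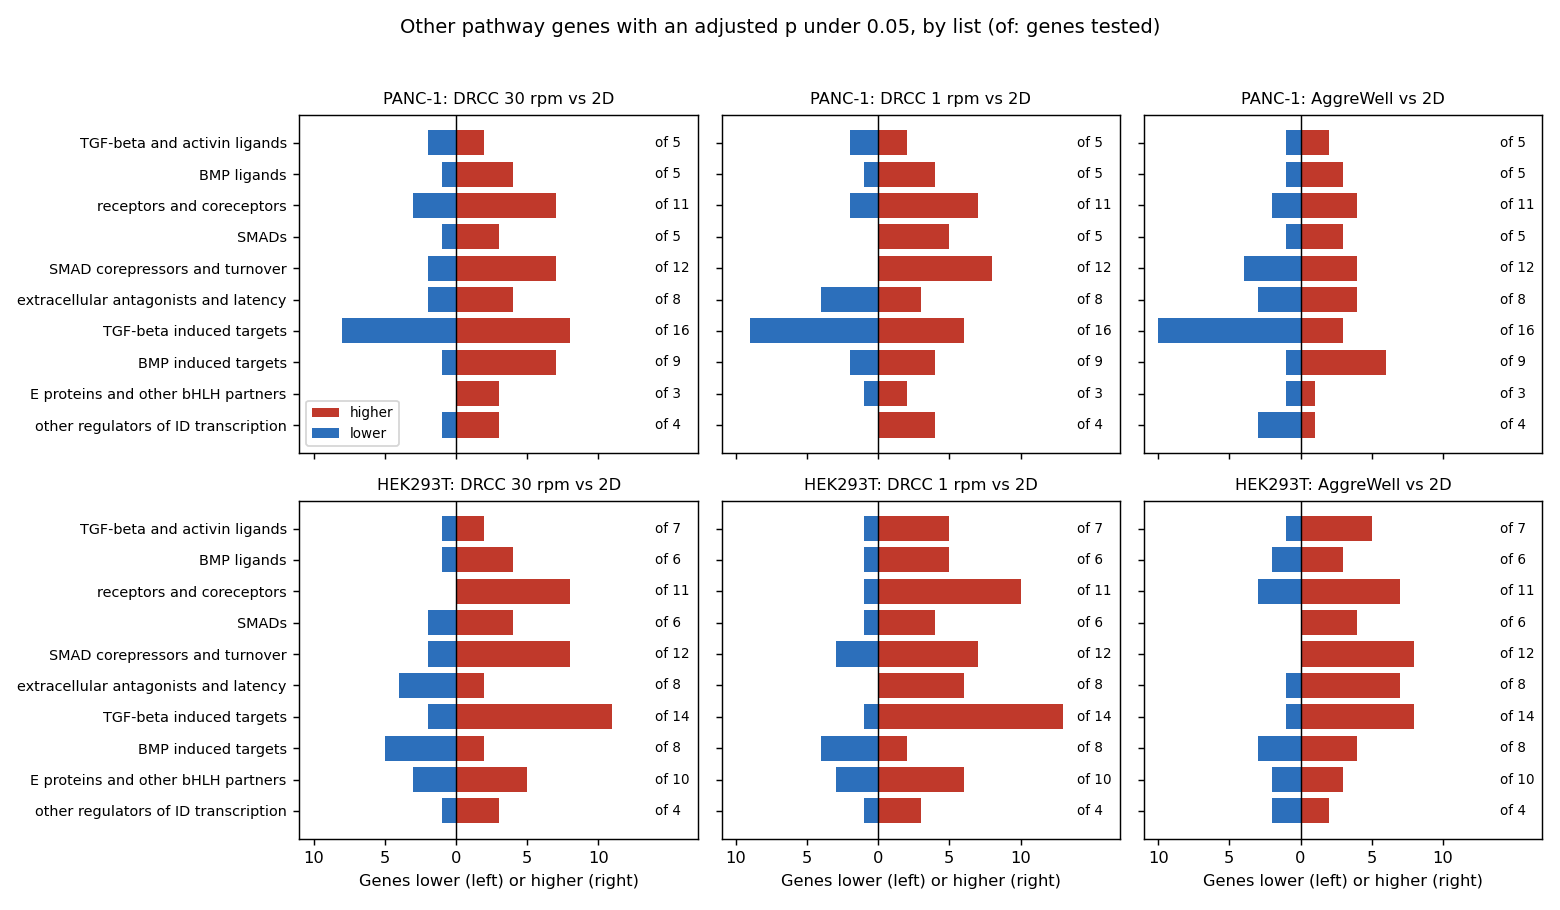
Number of genes in each of 10 pathway lists with an adjusted p under 0.05 that were higher (red, right) or lower (blue, left) than in 2D, with the number tested at the right edge, for PANC-1 (top) and HEK293T (bottom) at DRCC 30 rpm, DRCC 1 rpm and in AggreWell. TGF-beta induced genes in PANC-1 AggreWell show 10 lower and 3 higher of 16, and in HEK293T at 1 rpm 13 higher and 1 lower of 14. Of all genes tested, 24.1% were lower and 45.9% higher in the first comparison, and 53.1% higher and 31.7% lower in the second.

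The genes whose changes were most like those of a member were sought among 10752 genes tested in both lines, by the root mean square difference over the 6 log2 changes against 2D, which share their 2D libraries within a line. FOXL1, a forkhead factor gene, was nearest to both ID1 (0.35) and ID3 (0.42). Its change was 0.06 at 30 rpm, -0.72 at 1 rpm and 0.28 in AggreWell in PANC-1. For ID2 the nearest was ESCO2, a cohesin acetyltransferase gene, at 0.60. For PMEPA1 it was TUBA4A, a tubulin gene, at 0.26, followed by EPHB2 at 0.30 and ZNF185 at 0.32. SMAD6 and SKIL had closer neighbours. IQCE, HPS1 and CHKB-DT lay 0.15, 0.17 and 0.17 from SMAD6, and CTIF, CEBPG and ZNF805 lay 0.13, 0.18 and 0.18 from SKIL. ID4, SMAD7 and BAMBI were not compared, since they were not tested in both lines or changed by less than 2-fold.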

How the data were processed

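Grouping followed the sample titles and labels: 24 RNA-seq libraries, 3 in each of 8 groups. TRIzol extraction and a VAHTS Universal V10 library kit are recorded per the labels' protocols. Strandedness and poly(A) selection were not stated there, and without strand, reads from a gene cannot be separated from those of an antisense partner. The authors deposited their expression values as FPKM, in 1 table with 26450 rows. The submitters' processing notes list fastp, HISAT2, HTSeq and R 3.2.0 with the mouse build mm10, although the symbols are human ones. RefSeq held 25154 of them, and no coordinate was taken from the table. Fragments were recovered from the FPKM steps: in 26449 genes every value came to whole fragments within 0.01.

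Differences were fitted with limma 3.58.1 (R 4.3.3) with a variance trend on log2(FPKM + 1), which understates changes of low genes. Genes needed at least 1 FPKM in at least 3 libraries, which left 11585 genes in PANC-1, 12548 in HEK293T and 13392 for both. Each line was fitted over its 12 libraries and the line difference over all 24. Benjamini-Hochberg adjustment ran over all genes of a comparison, and an adjusted p under 0.05 counted as called. Figures and summaries used Python 3.11.15, pandas 2.3.3, numpy 2.4.6 and matplotlib 3.10.9. Same-numbered libraries deviated together in every pair for HEK293T 1 rpm and 2D alone (correlations of 0.145 to 0.43), as the data and not the labels show. Libraries of unlike number in these groups reached 0.226, that of 2D library 1 with 1 rpm library 3. Recovered counts of replicates differed beyond sampling noise in every pair.

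The members and lists were chosen with earlier results of these data known. No p-value is therefore given for the 9 genes, and those of list genes are descriptive. From each pathway list, line and format, the rule named up to 3 called genes with the largest change against 2D and at least 5 FPKM in the higher group, or the 2 most abundant where none was called, and in addition all 6 signalling SMADs. A selection of these genes is described, with their values in other formats. ATOH8 falls outside the rule. The settings varied were the pseudocount (0.1), the filter (none, or a mean of at least 5 FPKM), the scaling (median-ratio, quantile, mitochondrially encoded genes removed), the fit (only the formats compared, robust shrinkage, voom on recovered fragments, replicate number as block) and the libraries included, omitting 1 at a time.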

Additional observations from a re-analysis of the deposited data

Results flagged for a closer look

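The changes against 2D of the 7 genes tested in both lines differed between the lines in each format, by a test of the difference itself (limma, an interaction over 24 libraries). The calls are given as a description, since the genes were chosen on these libraries, and each value below is the PANC-1 change minus the HEK293T change on the log2(FPKM + 1) scale, with its SE. For ID1 the difference was -0.26 at 30 rpm, -1.02 at 1 rpm and 0.22 in AggreWell (SE 0.07). ID2 showed differences of -1.76 at 30 rpm, -2.38 at 1 rpm and 1.18 in AggreWell (SE 0.09). ID2 at both speeds lay below 2D in all PANC-1 libraries and above it in all HEK293T libraries. For ID3 it came to 0.41 at 30 rpm, -1.08 at 1 rpm and 0.52 in AggreWell (SE 0.05). The differences of ID4 were -1.32 at 30 rpm, -0.84 at 1 rpm and 0.22 in AggreWell (SE 0.08). PMEPA1 gave -1.20 at 30 rpm, -1.01 at 1 rpm and -1.75 in AggreWell (SE 0.06). Its PANC-1 libraries lay below 2D in all 3 formats and its HEK293T libraries above. For SMAD6 the values were 1.07 at 30 rpm, 0.79 at 1 rpm and 0.23 in AggreWell (SE 0.06). SMAD7 had 0.93 at 30 rpm, 0.62 at 1 rpm and -0.54 in AggreWell (SE 0.08). Both speeds lay above 2D in PANC-1 and below it in HEK293T, and AggreWell the other way round. SKIL gave values of -0.87 at 30 rpm, -0.73 at 1 rpm and -0.75 in AggreWell (SE 0.12). Those of BAMBI were 0.61 at 30 rpm, 0.44 at 1 rpm and 0.29 in AggreWell (SE 0.10). ID4 and BAMBI were under 1 FPKM in every PANC-1 library and entered the fit through HEK293T alone, so nothing is read from their calls. Their HEK293T changes were 1.27 and -0.28 at 30 rpm, 0.80 and -0.45 at 1 rpm and -0.12 and -0.20 in AggreWell, so the rest of each difference comes from PANC-1 values near 0. The AggreWell difference of ID4 no longer passed the threshold without HEK293T 2D library 2 (0.14), HEK293T AggreWell library 3 (0.18) or PANC-1 AggreWell library 3 (0.19), and that of BAMBI not without AggreWell library 2 of HEK293T (0.25) or of PANC-1 (0.27). The AggreWell difference of ID4 was 1.14 with voom on the recovered fragments and that of BAMBI 1.38, both not past the threshold; in PANC-1 ID4 had at most 28 fragments in a library and BAMBI at most 31. The ID4 and BAMBI differences in AggreWell were 0.10 and 0.18 with mitochondrially encoded genes left out, not past the threshold either, and that of BAMBI at 1 rpm was 0.42 with a pseudocount of 0.1 and 0.20 with voom, also short of it. The ID3 difference at 30 rpm was 0.08 with quantile normalization, also not past it.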

How the results depend on the processing

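Of the values of single genes, 1151 kept their side of the threshold across the alternative settings, 32 fell short of it, 11 newly passed it and 6 reversed. With libraries left out in turn 1765 kept their side, 30 fell short, 5 newly passed and 0 reversed. A change of sign counted as reversed only if the value passed the threshold as deposited or in the alternative. Sign changes short of that are among the values kept, such as ID1 in HEK293T at 1 rpm against 2D. It was -0.07 as deposited and 0.09 with mitochondrially encoded genes left out. Every reversal so counted was in HEK293T. ID3 in AggreWell against 2D was -0.12 with median-ratio scaling. With quantile normalization PMEPA1 was -0.0489 in AggreWell and -0.0637 at 1 rpm against 2D and -0.0148 at 1 rpm against AggreWell, and ID3 at 1 rpm against 2D was 0.12. The same ID3 value was 0.00451 with mitochondrially encoded genes left out. The cause of these shifts was not tested. With a mean of at least 5 FPKM fewer genes are tested: pathway genes called were then 45 at 30 rpm, 41 at 1 rpm and 37 in AggreWell against 2D in PANC-1, and 33, 43 and 38 in HEK293T. In HEK293T that filter left members called at 5 for 1 rpm and 4 for AggreWell against 2D and at 5 for each speed against AggreWell, and members past 2-fold at 1 for 30 rpm and 0 for 1 rpm. A pseudocount of 0.1, median-ratio scaling, quantile normalization and voom each gave 2 such members for 1 rpm. No count of members or pathway genes moved by 1.5 times with any library left out; counts of pathway genes ran from 56 to 75 and of members from 5 to 9.

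The replicate numbers did not pair the libraries of either line as a whole. Deviations from the group mean of libraries with the same number correlated at -0.0916 to 0.106 in PANC-1, with 1 of 18 correlations over 0.1, and at -0.0966 to 0.43 in HEK293T, with 6 of 18. Between libraries of unlike number, 1 of 36 correlations was over 0.1 in PANC-1 and 4 of 36 in HEK293T. The highest correlation of a library was with its own number in 2 of 12 PANC-1 and 6 of 12 HEK293T libraries, as seen in the data and not given by the design. All 3 same-numbered correlations were over 0.1 for HEK293T 1 rpm and 2D alone (0.145 to 0.43), and there the block left 8 members and 76 pathway genes called and changed no member's call. In these groups 2D library 1 correlated more with 1 rpm library 3 (0.226) than with 1 rpm library 1 (0.158). With the replicate number as a block, 8 members were called in HEK293T AggreWell against 2D, 8 for 30 rpm against 1 rpm and 7 for 1 rpm against AggreWell, and no count moved by 1.5 times. The block gained the calls of ID4 in AggreWell against 2D (-0.12) and SKIL at 30 rpm against 1 rpm (-0.22) and lost that of PMEPA1 at 1 rpm against AggreWell (0.11), all in HEK293T. Depth limits ID4 and BAMBI in PANC-1, with at most 28 and 31 fragments in a library.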
